A study of Mus musculus with 24 samples.

Results

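The comparison set sorted mature olfactory sensory neurons against the Neurog1-expressing precursors that give rise to them, in unlesioned mouse olfactory mucosa. Its members were the 6 arrays titled OMP (3 replicates) and Neurog1-Ctrl (3 replicates), out of 24 arrays in the series, read across 11870 measured genes. The OMP cells came from adult mice heterozygous for ∆OMP-GFP, bred with CD-1, in which GFP stands in place of 1 copy of Omp. The Neurog1-Ctrl cells came from adult heterozygous Neurog1-eGFP mice bred with FVB/NJ. Both sides were unlesioned animals 8 to 12 weeks old, both carried a single dose of a GFP reporter, and both were sorted as GFP-positive, propidium iodide-excluding cells of low scatter. Each replicate pooled the tissue of 2 to 7 mice, so an array is a pool and not an animal. All cells of a sort that carry the reporter enter it, and the mouse line differs between the sides, so that stage and line cannot be told apart in this comparison.

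Olfactory sensory neurons are replaced throughout life from basal cells at the floor of the epithelium. Neurog1, a proneural transcription factor, marks the committed precursor, which divides, exits the cell cycle and becomes an immature neuron that extends an axon to the olfactory bulb and expresses growth-associated proteins such as Gap43. The mature neuron grows cilia into the nasal mucus. There an odorant receptor activates the G protein Golf, adenylyl cyclase raises cyclic AMP, a cyclic nucleotide-gated channel lets in calcium, and a calcium-activated chloride channel amplifies the current. Omp, the olfactory marker protein, is the classical label of that mature cell.

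In brief, of 24 measured genes of odorant transduction 13 were higher and 1 lower in OMP cells, and 12 of 16 proneural and precursor factors, 26 of 39 growth-associated genes and 20 of 26 genes of G2 and mitosis were lower, by the test given next. The markers Adcy3 and Ano2 were higher by 2.38 ± 0.27 and 1.87 ± 0.20 on the log2 scale (± SE, n = 3 against 3), and Gng8 was lower by a log2 difference of -4.72 ± 0.41. Of the 11870 genes, 4279 (36%) differed at an adjusted p under 0.05, hereafter called, by limma's moderated test with Benjamini-Hochberg adjustment over all genes. Of these 2128 (17.9%) were higher and 2151 (18.1%) lower in OMP cells, and 2383 (20.1%) were also at least 2-fold apart (1258 higher, 1125 lower). The 3 arrays of a side did not overlap the 3 of the other for 6195 genes (52.2%). Every count of a gene group below is to be read against these shares and against a median log2 difference of 0.02 over all genes. Counts of 1 or 2 list members in a direction often changed when 1 array was left out, and nothing is read from them. Under cyclic loess scaling the split was 2790 higher to 1830 lower (60.4% higher, against 49.7% here), and the median of all genes moved to 0.14. In sorted bulk RNA, fewer cells of a type and less RNA per cell cannot be told apart.

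The 6 arrays detected 34.9% to 46.0% of probes, correlated within groups at r from 0.967 to 0.991 over genes, and had mean intensities from 356 to 722 before scaling. The noise of the background, the SD of the negative controls inferred from the detection p-values, differed, and arrays were put into 4 classes by it after the data were seen: the OMP arrays fell into 3 of the 4 noise classes of the series, and the 3 Neurog1-Ctrl arrays into 1.

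The promoters of 4 genes that stand for the 2 sides are shown, since regulation of olfactory genes has been studied through sites for Ebf (Olf) factors, homeodomain factors and E-box proteins. They span 250 bases before to 50 bases after the annotated start, from RefSeq on GRCm38.p6, 5′ to 3′ on the gene's strand. Capitals mark matches, on either strand, to the Ebf core CCCNNGGGA and to the E-boxes CAGATG and CAGCTG; the homeodomain site TAATTA matched none of the 4. Cnga2, the cyclic nucleotide-gated channel subunit, lies at chrX:71991599-71991898 on the plus strand and holds 1 Ebf core and 1 CAGCTG. Adcy3, the odorant-activated adenylyl cyclase, lies at chr12:4133903-4134202 on the plus strand and holds 1 CAGATG. Gng8, a G protein gamma subunit of immature olfactory neurons, lies at chr7:16891536-16891835 on the plus strand and holds none. Sox11, a transcription factor of newborn neurons, lies at chr12:27342669-27342968 on the minus strand and holds 1 Ebf core and 1 CAGCTG.
Cnga2: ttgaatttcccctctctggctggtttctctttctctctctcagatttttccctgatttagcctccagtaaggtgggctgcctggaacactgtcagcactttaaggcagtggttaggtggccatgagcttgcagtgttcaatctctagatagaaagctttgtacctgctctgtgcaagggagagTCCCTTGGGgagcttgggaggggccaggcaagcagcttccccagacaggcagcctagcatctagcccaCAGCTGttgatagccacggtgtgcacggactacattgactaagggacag
Adcy3: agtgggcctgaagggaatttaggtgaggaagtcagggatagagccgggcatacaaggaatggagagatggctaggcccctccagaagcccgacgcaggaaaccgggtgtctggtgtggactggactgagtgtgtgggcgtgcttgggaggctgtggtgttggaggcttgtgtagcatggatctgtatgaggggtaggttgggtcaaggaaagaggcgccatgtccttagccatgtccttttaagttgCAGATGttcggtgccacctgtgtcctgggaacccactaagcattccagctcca
Gng8: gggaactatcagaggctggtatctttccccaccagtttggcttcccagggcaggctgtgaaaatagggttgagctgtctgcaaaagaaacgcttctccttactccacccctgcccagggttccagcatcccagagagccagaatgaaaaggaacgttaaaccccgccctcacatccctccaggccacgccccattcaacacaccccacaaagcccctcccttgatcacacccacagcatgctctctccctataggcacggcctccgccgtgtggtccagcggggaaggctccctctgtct
Sox11: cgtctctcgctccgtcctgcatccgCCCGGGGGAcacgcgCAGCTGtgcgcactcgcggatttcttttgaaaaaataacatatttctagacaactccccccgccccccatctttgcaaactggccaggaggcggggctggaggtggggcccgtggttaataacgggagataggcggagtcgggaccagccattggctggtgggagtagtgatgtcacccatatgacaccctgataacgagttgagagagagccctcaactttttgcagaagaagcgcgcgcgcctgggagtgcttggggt

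Over the 9628 tested genes with such a window, the Ebf core was found in 8.55% of windows of genes called higher, 8.33% of those called lower and 7.83% of all. CAGCTG was in 14.6%, 15% and 15.2% in the same order, CAGATG in 13.4%, 10.2% and 12.1%, and TAATTA in 4.02%, 2.88% and 3.23%. A match describes the letters of the window and is no evidence of a site in use.

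The reporter genes were read first. Neurog1 had log2 signals of 4.82, 4.99 and 4.84 on the OMP arrays and 7.16, 6.34 and 6.30 on the Neurog1-Ctrl arrays. It was above background on none of the OMP arrays and on all Neurog1-Ctrl arrays, so it was at least 1.98-fold lower in OMP cells (log2 difference -1.72 ± 0.25, adjusted p = 3.61e-05). Where a gene was above background (detection p under 0.01) on no array of the lower group, the fold is given as such a bound. Omp itself did not separate the sides: it read 15.55, 15.26 and 15.01 in OMP cells and 15.10, 15.37 and 15.22 in Neurog1-Ctrl cells, with overlapping arrays (0.04 ± 0.18, adjusted p = 0.871). A second Omp probe differed by -0.53, and the OMP line has only 1 intact copy of the gene. The label of the Neurog1-Ctrl cells as precursors therefore rests on their other markers, and their RNA held the transcript of the mature neuron's own label. Sox2, of earlier basal and of sustentacular cells, read 7.14, 6.89 and 6.75 in OMP cells and 6.07, 6.28 and 6.13 in Neurog1-Ctrl cells and did not pass (0.77, adjusted p = 0.0735). Of 7 markers of mature olfactory neurons, Adcy3, Ano2, Cnga2, Cnga4 and Gnal rose and Omp and Gng13 did not pass. All 7 markers of immature neurons and precursors (Gng8, Gap43, Stmn2, Neurog1, Neurod1, Insm1 and Sox11) fell.

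**Figure D1:**
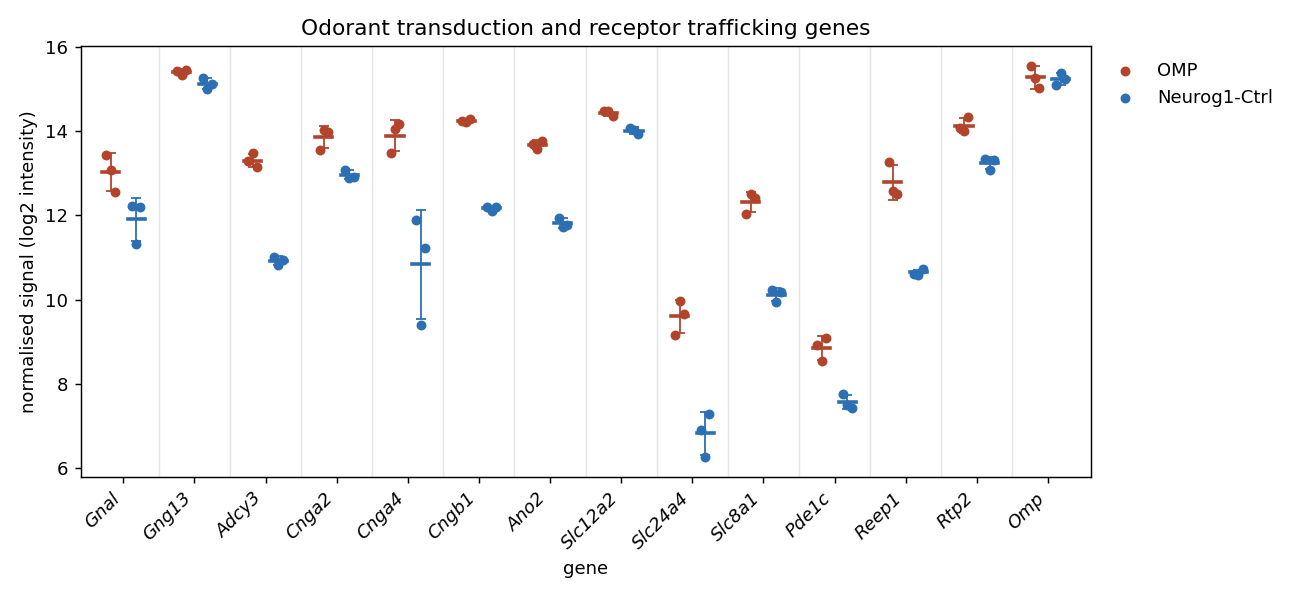
Log2 normalised signal (vertical axis) of 14 genes of odorant transduction and receptor trafficking. Each point is 1 array, OMP left of Neurog1-Ctrl within a gene, the bar is the mean and the whiskers ± 1 SD (n = 3). Adcy3, Cngb1 and Ano2 show tight, separate groups, Cnga4 is wide in Neurog1-Ctrl cells (9.39 to 11.89), and Omp overlaps. Levels of different genes come from different probes and are not to be compared.

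The transduction cascade differed at some steps and not at others. Its 24 measured genes held 13 that rose, 1 that fell and 10 that did not pass, with a median of 0.87. At the head of the chain, Gnal, the alpha subunit of Golf, read 13.43, 13.08 and 12.55 in OMP cells and 12.21, 11.32 and 12.19 in Neurog1-Ctrl cells (1.11 ± 0.41, adjusted p = 0.0398). The groups did not overlap, and 2 other Gnal probes gave 2.08 and 2.12, but the call was lost when OMP replicate 1, OMP replicate 2 or Neurog1-Ctrl replicate 2 was left out (adjusted p of 0.148, 0.0829 and 0.179). Its partners Gnb1 and Gng13 did not pass, at 0.38 and 0.27. Ric8b, a chaperone and exchange factor of Golf, rose by 1.13.

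Adcy3, the next step, read 13.28, 13.47 and 13.15 in OMP cells and 11.02, 10.81 and 10.93 in Neurog1-Ctrl cells, a 5.20-fold rise (adjusted p = 2.39e-06), and its other probe gave 0.99. All OMP arrays lay more than 2 log2 units above all Neurog1-Ctrl arrays. The cyclic nucleotide-gated channel rose in all 3 of its subunits by unequal amounts. Cnga2, the principal subunit, read 13.55, 14.03 and 13.97 in OMP cells and 13.08, 12.89 and 12.92 in Neurog1-Ctrl cells (0.88 ± 0.22, adjusted p = 0.00415). Cnga4, the modulatory subunit, read 13.47, 14.04 and 14.15 in OMP cells against 11.89, 9.39 and 11.23 in Neurog1-Ctrl cells (3.05 ± 0.60, 8.28-fold, adjusted p = 0.000572). The Neurog1-Ctrl arrays of Cnga4 were widely spread and all lay below the OMP arrays. Cngb1 read 14.24, 14.21 and 14.27 in OMP cells and 12.20, 12.11 and 12.21 in Neurog1-Ctrl cells (2.07 ± 0.22, adjusted p = 1.18e-06), although another Cngb1 probe differed by -0.73.

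Ano2, the calcium-activated chloride channel, read 13.69, 13.57 and 13.77 in OMP cells and 11.94, 11.72 and 11.76 in Neurog1-Ctrl cells (3.65-fold, adjusted p = 1.07e-06). Slc12a2, the cotransporter that loads the neuron with chloride, did not pass (0.43, adjusted p = 0.0782). The exchangers that remove calcium both rose: Slc24a4 read 9.17, 9.96 and 9.66 in OMP cells against 6.92, 6.26 and 7.29 in Neurog1-Ctrl cells (2.77 ± 0.37, adjusted p = 1.49e-05), and Slc8a1 differed by 2.20 ± 0.17 (adjusted p = 5.17e-08). Of the enzymes that end the signal, Pde1c rose by 1.29 (0.47 on a second probe) and Pde4a by 1.37, a call lost without OMP replicate 3 (adjusted p = 0.0623). Calm2 and Calm3, 2 calmodulin genes, did not pass, at -0.32 and -0.24. Proteins that bring odorant receptors to the cell surface moved the same way in part: Reep1 read 13.26, 12.57 and 12.50 in OMP cells and 10.61, 10.59 and 10.72 in Neurog1-Ctrl cells (2.14 ± 0.20, adjusted p = 2.6e-07), Rtp2 rose by 0.88 (adjusted p = 0.00472), and Rtp1 did not pass (0.47, adjusted p = 0.0633). In all, 3 of the 7 measured trafficking genes rose and none fell (median 0.88).

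Around the cascade, heterotrimeric G protein subunits ran mostly the other way, with 2 of 24 higher, 10 lower and a median of -0.30. Gng8 read 9.10, 9.94 and 9.04 in OMP cells and 14.02, 14.18 and 14.04 in Neurog1-Ctrl cells, 26.4-fold lower (adjusted p = 1.43e-07), with the OMP arrays at least 4 log2 units below. Gnas, the alpha subunit close to Gnal, read 7.90, 7.86 and 6.97 in OMP cells and 10.08, 10.04 and 10.01 in Neurog1-Ctrl cells (-2.47 ± 0.30, adjusted p = 4.13e-06), and 2 further probes gave -2.26 and -1.70. Gng3, a gamma subunit of neurons that was detected on 1 of the 3 OMP arrays, fell by 2.70, and Gng2, detected on 2 of them, fell by 2.33. Gnb5, the beta subunit that partners RGS proteins, rose by 1.30. Among 17 adenylyl cyclases and phosphodiesterases, 5 rose and 3 fell (median 0.33), and 8 rose under cyclic loess scaling. Adcy3 rose while Adcy1, a calmodulin-stimulated cyclase detected on none of the OMP arrays, was at least 1.52-fold lower, and Pde7b, a cyclic AMP phosphodiesterase, rose by 1.95.

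Odorant receptors were the largest family on the array. Each neuron is known to express 1 receptor gene out of many, so the array reads each one diluted over the whole pool. Of 583 measured receptors, 275 rose and 34 fell in OMP cells, and their median difference was 0.78. These 583, of 1078 on the array, were detected on 3 or more of the 21 mucosal arrays. The 3 arrays of 1 group sufficed, so a receptor could pass through the OMP arrays alone. The counts and the median can partly reflect this filter. With OMP replicate 3 left out 183 rose, and with Neurog1-Ctrl replicate 1 left out 21 fell. Receptors above background on all 3 arrays numbered 471 in OMP cells and 305 in Neurog1-Ctrl cells, and 18 in OMP cells and 159 in Neurog1-Ctrl cells were detected on no array. Detection depends on background noise, whose SD was 4.79, 16.6 and 11.2 on the OMP arrays. On the Neurog1-Ctrl arrays it was 20.8, 17.3 and 18.7, so the detection counts of the sides are not like for like. The median log2 signal over the receptors was between 6.72 and 7.52 on the OMP arrays and between 6.06 and 6.39 on the Neurog1-Ctrl arrays, without overlap. These medians are over the same 583 receptors, so the filter can favour this separation too.

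The receptor with the widest rise, Olfr136, read 9.25, 8.47 and 10.59 in OMP cells and 6.28, 4.57 and 4.51 in Neurog1-Ctrl cells, where it was detected on 1 array (4.31 ± 0.49, adjusted p = 2.39e-06). Olfr1423 rose by 3.08 ± 0.28, and Olfr121, Olfr1200 and Olfr118, each detected on no Neurog1-Ctrl array, were at least 3.44-fold, 2.54-fold and 3.72-fold higher. The receptors that ran against the family were few and some of them were large. Olfr75-ps1, named as a pseudogene, read 4.94, 5.30 and 5.05 in OMP cells and 8.62, 8.06 and 8.75 in Neurog1-Ctrl cells, at least 7.27-fold lower (adjusted p = 3.94e-09). Olfr485 was at least 4.32-fold lower, Olfr282 at least 3.84-fold, Olfr470 at least 3.25-fold, Olfr486 at least 3.23-fold and Olfr1535 at least 2.31-fold, none of them above background on an OMP array. Chromosome 7 held 11 of the 34 lower receptors (32.4%), 47 of the 275 higher ones (17.1%) and 20.8% of all 583 tested, and this difference in shares was not tested. At least 1 of the 2 flanking tested receptor genes was lower for 11 of the 34 lower receptors and for 20 of the 275 higher ones. Lower receptors that flank each other, such as Olfr485 and Olfr486, are each counted. The share over all 583 was not counted and no test was made, so nothing is read from these counts. Whether these values follow the stage or the line cannot be told apart here.

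**Figure D2:**
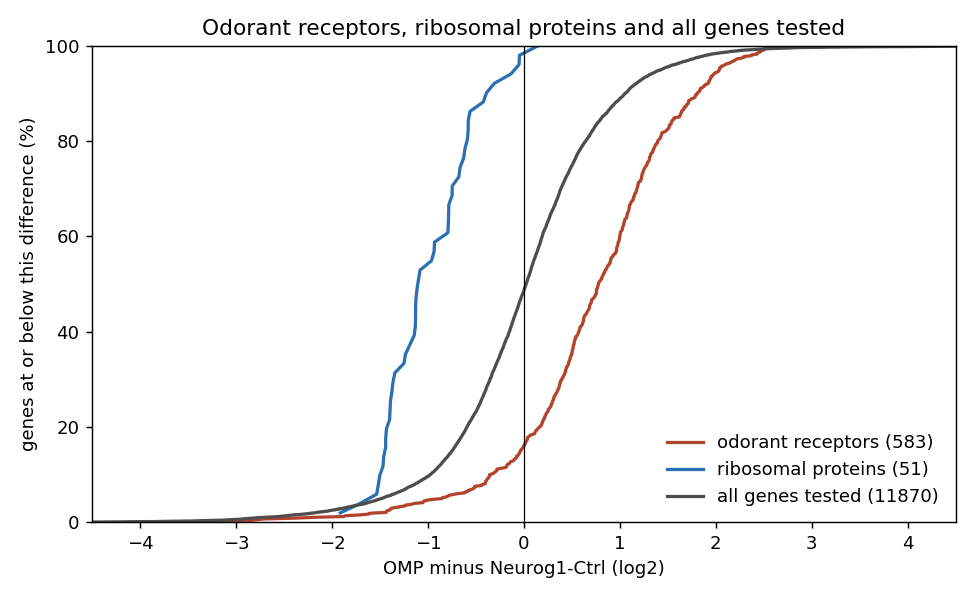
Cumulative share of genes (vertical axis, %) at or below a given OMP minus Neurog1-Ctrl difference (horizontal axis, log2), for 583 odorant receptors, 51 ribosomal protein genes and all 11870 genes tested. The receptor curve lies to the right of all genes (median 0.78) and the ribosomal curve to the left (median -1.10).

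Of 11 measured trace amine-associated receptors, a small second family of olfactory receptors, 7 rose, none fell, and the median was 1.22. Without OMP replicate 3 the count of rises was 4. On all 3 arrays of a group, 10 of the 11 were detected in OMP cells and 1 in Neurog1-Ctrl cells. Taar7d was detected on the 3 OMP arrays alone and passed the filter only through them. The count and the median can therefore partly reflect the filter. Taar7d read 6.68, 6.73 and 6.18 in OMP cells and 4.86, 4.97 and 4.77 in Neurog1-Ctrl cells (1.67 ± 0.18, adjusted p = 1.03e-06), at least 1.51-fold higher. Taar7e was at least 1.94-fold and Taar7a at least 2.0-fold higher, and Taar5 at least 1.42-fold. Taar6, detected on 1 Neurog1-Ctrl array, rose by 1.47. Taar2 rose by 1.37 and Taar8b, detected on no Neurog1-Ctrl array, was at least 1.52-fold higher, with OMP replicate 3 the brightest at 8.51 and 7.81. Neither was called without it (adjusted p = 0.241 and 0.152). Taar2 also lost its call without OMP replicate 2 or any 1 of the Neurog1-Ctrl arrays (adjusted p from 0.0586 to 0.102), and Taar8b was also lost without Neurog1-Ctrl replicate 2 or 3 (0.0770 and 0.0627). Taar4 (0.84), Taar7b (0.79), Taar7f (0.34) and Taar3 (-0.14) did not pass. Taar genes resemble each other in sequence, so a probe of 1 member may read its neighbours.

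Cilia, which house the cascade, were next. Of 41 measured genes of intraflagellar transport, the BBSome and the ciliary base, 14 rose and 2 fell (median 0.37), and 8 rose under median scaling. Kif17, the motor that carries the cyclic nucleotide-gated channel into cilia, was detected on no Neurog1-Ctrl array and was at least 3.37-fold higher (0.62 on a second probe). Rpgr of the connecting region rose by 1.65, Ift122 by 1.34, Rpgrip1l by 1.15 and the BBSome subunits Bbs1 and Bbs4 by 0.83 and 0.81. Foxj1, the switch for motile cilia, did not pass at -0.12.

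Cfap69, a ciliary protein of olfactory neurons and sperm, showed the largest rise of any gene eligible to be named. It read 12.60, 12.66 and 12.40 in OMP cells and 5.41, 5.82 and 5.49 in Neurog1-Ctrl cells, where no array was above background, so it was at least 98.1-fold higher (6.98 ± 0.27, adjusted p = 3.54e-12). A second probe gave 5.21. All 6 arrays of the Neurog1-eGFP line, with and without the olfactory bulb, lay below the 15 other mucosal arrays for Cfap69, the Sus arrays of sustentacular cells included. This split by line was counted over all 11870 genes. All 6 Neurog1-line arrays lay below the other 15 for 123 genes, of which 114 were called higher in OMP cells, and above them for 91, of which 83 were called lower. All 6 OMP-line arrays lay above the other 15 for 271 genes, of which 220 were called higher, and below them for 372, of which 335 were called lower. Such a split keeps the OMP and Neurog1-Ctrl arrays apart by its construction, so nothing is read from the share called. Mature neurons were sorted only from the OMP line and Neurog1-expressing precursors only from the Neurog1 line, so line and cell type cannot be told apart for any of these genes.

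Other rises at the top shared the Neurog1-line pattern. Tesk1, a kinase that acts on cofilin, read 10.15, 10.36 and 10.73 in OMP cells and 5.61, 5.22 and 5.45 in Neurog1-Ctrl cells, at least 22.2-fold higher. Cops8, a COP9 signalosome subunit, was at least 12.9-fold higher, and the secreted glandular proteins Dcpp2 and Dcpp3 at least 12.6-fold and 11.6-fold, all 3 detected on no Neurog1-Ctrl array. Pdrg1 differed by 5.21 ± 1.0 with 1 Neurog1-Ctrl array at 8.33 and the others at 4.53 and 4.69. The Neurog1-line arrays without the bulb were not uniformly low: they read 10.28, 4.64 and 9.36 for Pdrg1 and 8.96, 4.74 and 5.42 for Cops8. Lipa, the lysosomal acid lipase, was at least 6.01-fold higher and Pdlim1, an actin-associated LIM protein, rose by 4.08. Of the largest rises outside that pattern, Clip4, a member of a microtubule plus-end protein family, read 12.52, 11.86 and 12.21 in OMP cells and 7.67, 7.58 and 7.20 in Neurog1-Ctrl cells (4.71 ± 0.30, adjusted p = 8.00e-09). Mob3b was at least 11.0-fold higher. Ky was at least 15.5-fold higher by the mean of its OMP arrays, which were widely spread (10.54, 11.28 and 7.86). It was detected on all 3 Neurog1-line arrays without the olfactory bulb, at a mean of 9.22. Aph1b, of the gamma-secretase complex, rose by 4.45 with detection on 1 Neurog1-Ctrl array. For Aph1b, all 6 arrays of the OMP line lay above the other 15. Grp, gastrin-releasing peptide, gave the mirror case: it read 5.60, 6.21 and 5.46 in OMP cells and 10.38, 10.09 and 10.08 in Neurog1-Ctrl cells, and all 6 arrays of the OMP line lay below the other 15.

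**Figure D3:**
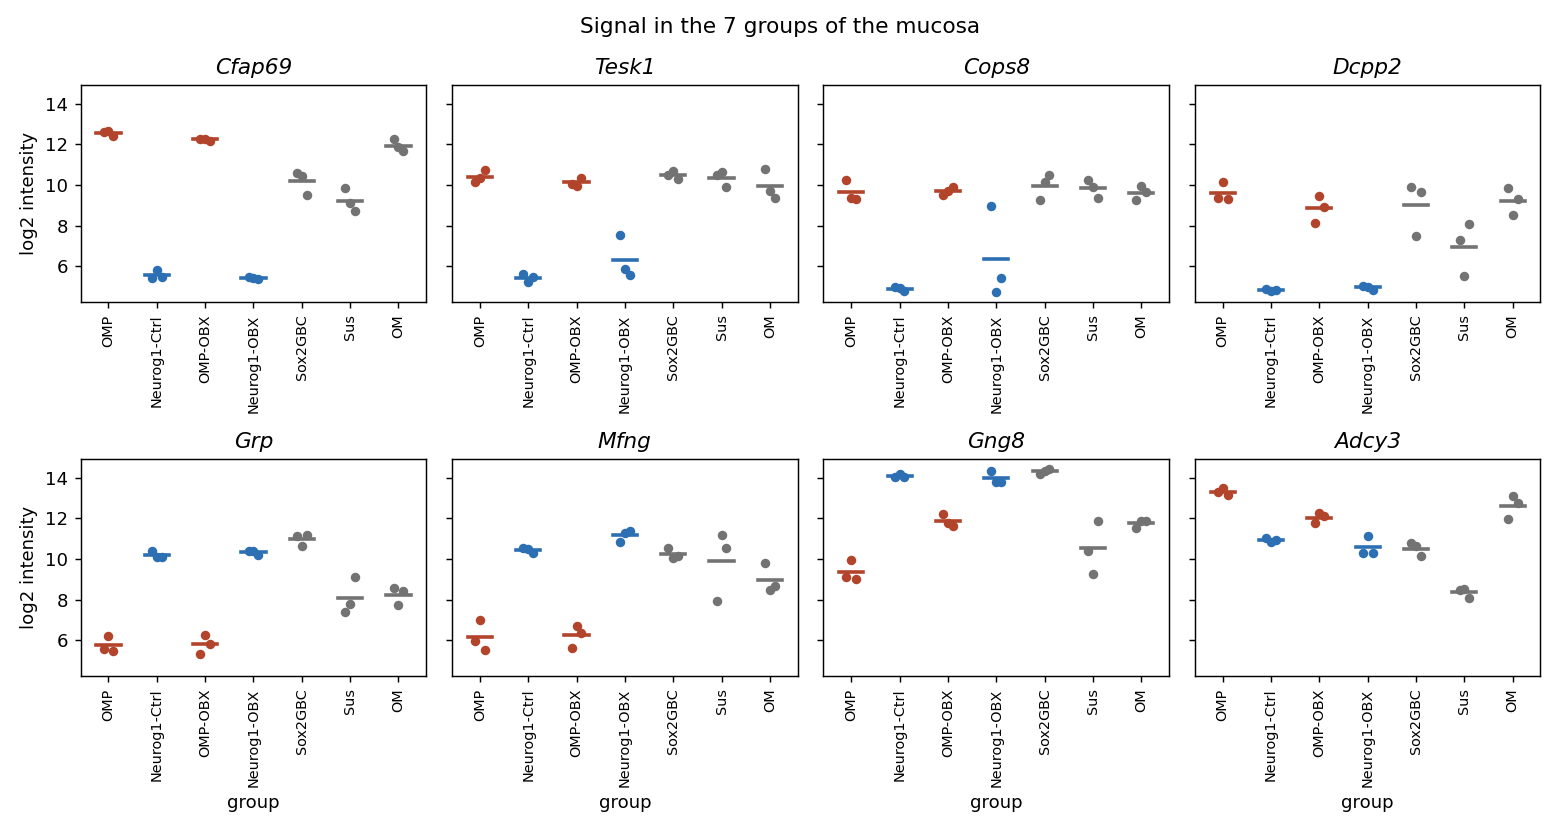
Log2 normalised signal (vertical axis) of 8 genes on the 21 mucosal arrays, grouped along the horizontal axis. Points are arrays, horizontal bars are means (n = 3). The first 4 genes are lowest in both groups of the Neurog1 line, Grp and Mfng lowest in both groups of the OMP line, Gng8 is raised in OMP-OBX relative to OMP, and Adcy3 is highest in OMP.

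Of 16 measured proneural and precursor factors, 12 fell and none rose (median -2.33). Insm1, a zinc-finger factor of newborn neurons, read 10.10, 11.46 and 10.87 in OMP cells and 14.01, 13.74 and 13.76 in Neurog1-Ctrl cells (-3.02 ± 0.40, adjusted p = 1.26e-05). Sox11 read 10.76, 11.82 and 10.70 in OMP cells and 14.48, 14.57 and 14.48 in Neurog1-Ctrl cells (-3.41 ± 0.35, adjusted p = 7.03e-07), with further probes from -1.34 to -3.93. In both genes OMP replicate 2 was the highest of the OMP arrays and still more than 2 log2 units below every Neurog1-Ctrl array. Neurod1, the proneural factor downstream of Neurog1, was at least 2.45-fold lower, and Eya2 at least 5.48-fold lower, both detected on no OMP array. Mfng, a glycosyltransferase that modifies Notch, read 5.97, 7.0 and 5.53 in OMP cells and 10.55, 10.47 and 10.28 in Neurog1-Ctrl cells (-4.27 ± 0.58, adjusted p = 1.56e-05), and it was detected on 2 OMP arrays. Cdkn1c, an inhibitor of cyclin-dependent kinases, changed by -3.25, Tead2 by -3.10, Mycl by -2.86 and Hes6 by -2.40. Sox12 and Dll1 did not pass (0.41 and 0.06).

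**Figure D4:**
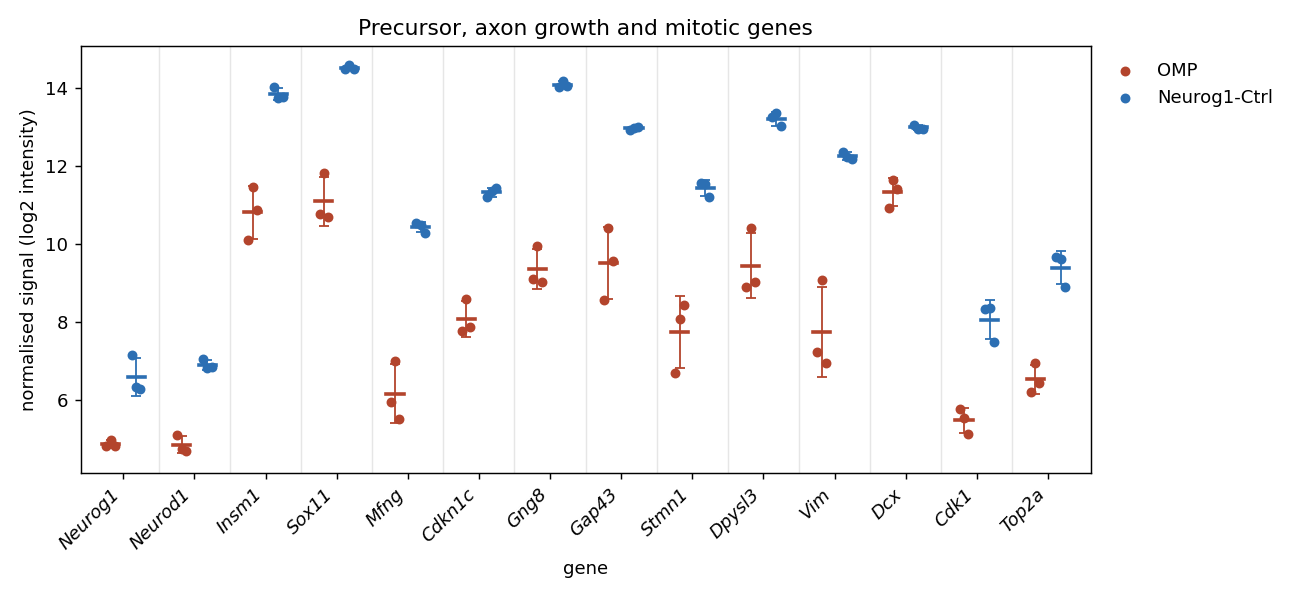
Log2 normalised signal (vertical axis) of 14 genes of the precursor, the growing neuron and the cell cycle. Each point is 1 array, OMP left of Neurog1-Ctrl within a gene, with the mean as a bar and ± 1 SD as whiskers (n = 3). In every gene shown the 3 OMP arrays lie below the 3 Neurog1-Ctrl arrays. Levels of different genes are not to be compared.

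Of 39 measured growth-associated genes 26 fell and 2 rose, with a median of -2.0. Gap43, the growth-cone protein, read 8.57, 10.41 and 9.57 in OMP cells and 12.91, 12.98 and 12.99 in Neurog1-Ctrl cells (-3.44 ± 0.40, adjusted p = 3.17e-06). Stmn1, a tubulin-binding protein of growing neurons, read 6.70, 8.07 and 8.45 in OMP cells and 11.55, 11.54 and 11.20 in Neurog1-Ctrl cells (-3.69 ± 0.49, adjusted p = 1.29e-05). Vim, the intermediate filament vimentin, read 7.25, 9.07 and 6.95 in OMP cells and 12.37, 12.23 and 12.18 in Neurog1-Ctrl cells (-4.5 ± 0.5, adjusted p = 1.86e-06). The Neurog1-Ctrl arrays were tight in all 3 genes and the OMP arrays were spread over more than 1 log2 unit. Dpysl3, a collapsin response mediator, changed by -3.75, Cxcr4, a chemokine receptor of migrating precursors detected on 2 OMP arrays, by -3.76, Fscn1, an actin-bundling protein, by -3.34, Marcksl1 by -3.28 and Tmsb10 by -2.96. Doublecortin (Dcx) changed by -1.66 and Stmn2 by -2.26. The 2 members that rose were the membrane glycoprotein Gpm6a by 2.46 ± 0.32 and the transport adaptor Fez1 by 1.07. Tmsb4x, the paralogue of Tmsb10, did not pass at 0.11. Outside the lists, Col9a2, a collagen chain, fell most (-5.21 ± 0.45), with 5.75, 7.46 and 7.22 in OMP cells and 12.02, 12.05 and 11.99 in Neurog1-Ctrl cells. Ooep changed by -4.30, Mex3a, an RNA-binding protein of proliferating cells, by -3.93, and Prph, the intermediate filament peripherin, by -3.90.

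Cell cycle genes fell as well. Of 26 measured genes of G2 and mitosis 20 fell and none rose (median -1.54), and of 31 genes of DNA replication and G1/S 19 fell and 1 rose (median -0.92). Cdk1, the mitotic kinase, read 5.77, 5.55 and 5.14 in OMP cells, where 1 array was above background, and 8.33, 8.36 and 7.48 in Neurog1-Ctrl cells (-2.57 ± 0.50, adjusted p = 0.000531). Top2a, the DNA topoisomerase of dividing cells, read 6.21, 6.95 and 6.44 in OMP cells and 9.67, 9.61 and 8.90 in Neurog1-Ctrl cells (-2.86 ± 0.57, adjusted p = 0.000676), and its other probe gave -0.35. Nusap1 changed by -2.95, Birc5 by -2.90 and Cdc20 by -2.86. Among replication genes, Gins1 changed by -2.54, E2f2 by -2.41 and the helicase subunit Mcm2 by -2.02, while Pcna, the sliding clamp, did not pass (0.11). Cyclin D2 (Ccnd2), detected on no Neurog1-Ctrl array, was the exception at least 1.61-fold higher, with 0.09 on another probe. On the OMP array of the highest noise class alone, against the same 3 Neurog1-Ctrl arrays, 8 mitotic and 7 replication genes were called lower.

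**Figure D5:**
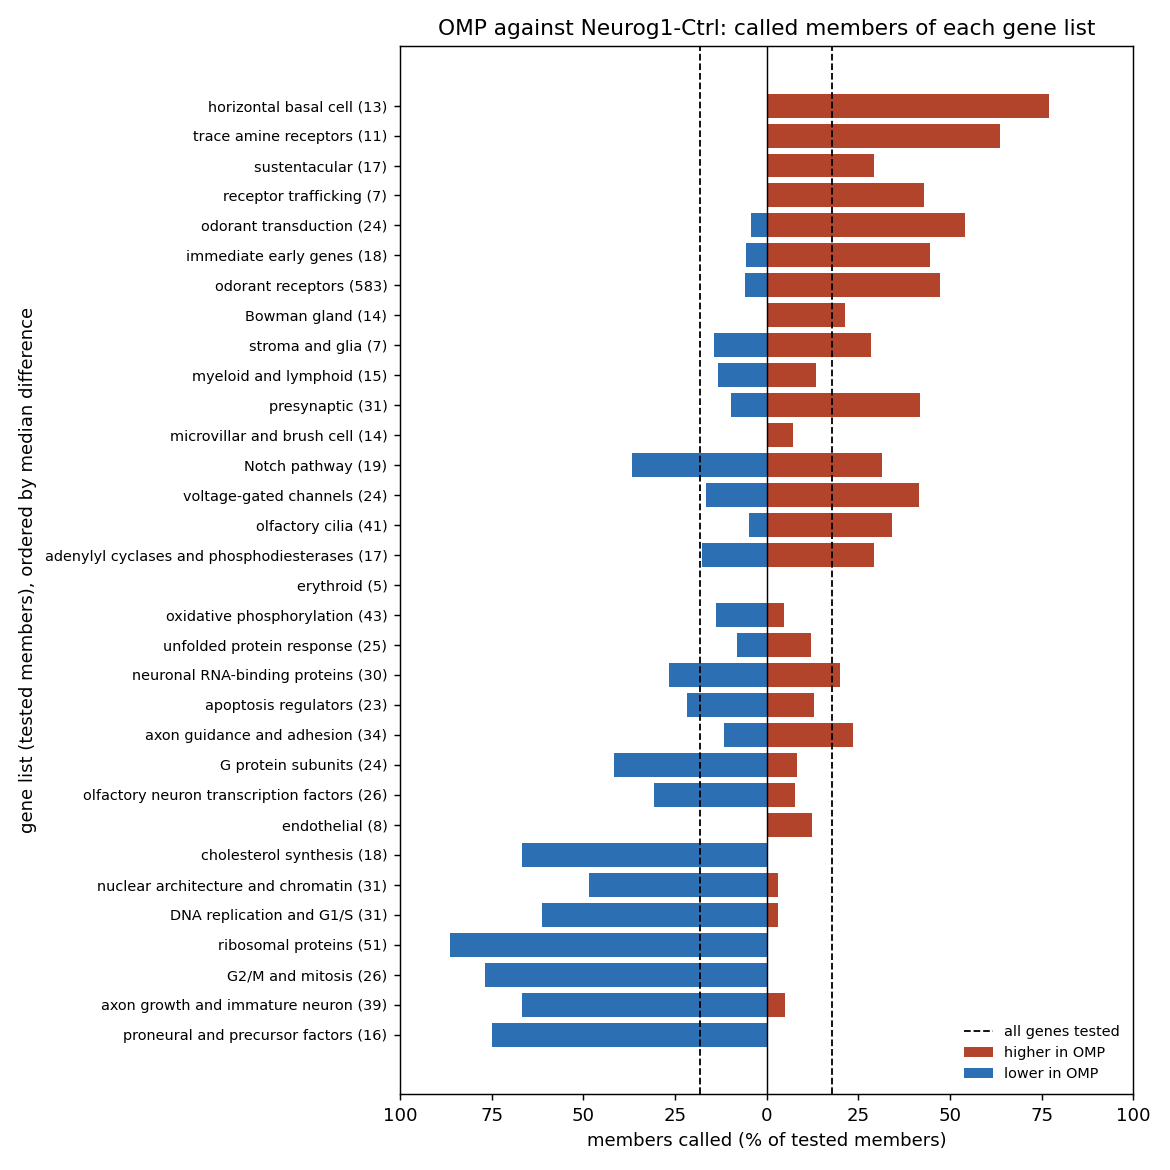
Share of measured members called (horizontal axis, %), higher in OMP to the right and lower to the left, for 32 gene lists with the number of measured members in brackets. Dashed lines mark the shares over all genes tested (17.9% higher, 18.1% lower). Lists are ordered by their median difference, from horizontal basal cell markers at the top (median 1.51) to proneural factors at the bottom (median -2.33).

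Among transcription factors of the olfactory neuron, 2 of 26 rose and 8 fell (median -0.37). The Ebf factors did not pass: Ebf1 differed by -0.71 (adjusted p = 0.158), Ebf2 by -0.17 and Ebf3 by -0.07. Dlx6, a homeodomain factor, changed by -2.83 with detection on 2 OMP arrays, Nfia by -1.81, and St18 was at least 2.71-fold lower. Klf7 did not pass (0.53). Nuclear architecture and chromatin genes held 15 of 31 that fell and 1 that rose (median -0.68). The CoREST proteins fell together with their demethylase, Rcor2 by a log2 difference of -2.48 with 1 OMP array above background, Rcor1 by -1.14 and Kdm1a, the lysine demethylase LSD1, by -0.86. Ezh2, the Polycomb methyltransferase, read 8.19, 8.51 and 7.83 in OMP cells and 10.11, 10.35 and 10.31 in Neurog1-Ctrl cells (-2.08 ± 0.46, adjusted p = 0.00154). Hmgb2 changed by -2.17 and Tet1 by -1.53. Lbr, the lamin B receptor, which is known to be low in mature olfactory neurons, did not pass (0.03). Smarcc1 rose by 2.76, with 0.21 on its other probe.

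Ribosomal protein genes fell almost as a block: 44 of 51 fell, none rose, and the median was -1.10. Rpl13a read 7.36, 7.88 and 7.63 in OMP cells and 9.62, 9.57 and 9.42 in Neurog1-Ctrl cells (-1.91 ± 0.30, adjusted p = 7.19e-05). Rplp0, the stalk protein, read 6.28, 6.25 and 6.61 in OMP cells and 8.19, 7.98 and 8.10 in Neurog1-Ctrl cells (-1.71 ± 0.19, adjusted p = 2.24e-06). Rps10, Rpl12, Rps19 and Rps15 changed by -1.53, -1.52, -1.5 and -1.47, and Rpl23 did not pass (0.15). The summed linear signal of the 51 genes was 380740 to 443320 on the OMP arrays and 691820 to 728110 on the Neurog1-Ctrl arrays. The count was 38 under median scaling, and none rose under any of the scalings tried. Ribosomal protein genes have many processed pseudogenes, and a probe may read more than 1 copy.

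Presynaptic genes rose in part, with 13 of 31 higher, 3 lower and a median of 0.52. Slc17a6, the vesicular glutamate transporter, read 14.40, 14.42 and 14.70 in OMP cells and 13.15, 12.85 and 13.12 in Neurog1-Ctrl cells (1.46 ± 0.19, adjusted p = 1.04e-05). Syt4, a synaptotagmin, read 12.49, 12.14 and 11.90 in OMP cells and 10.12, 10.26 and 9.94 in Neurog1-Ctrl cells (2.07 ± 0.24, adjusted p = 3.07e-06). The vesicle proteins Sv2b and Sv2a rose by 1.76 and 1.42, Syt1, the calcium sensor of fast release, by 1.31 and Syp, synaptophysin, by 0.92. Against them, Syt5 changed by -2.02 and Unc13a, a vesicle priming factor detected on 1 OMP array, by -1.92. Of 24 voltage-gated channel genes 10 rose and 4 fell (median 0.40). The pacemaker channel Hcn2 rose by 1.61, the potassium channel subunit Kcnab2 by 1.53 and Kcnma1 by 1.37, whereas Kcnc1 fell by 1.58. Scn4b, a sodium channel beta subunit, rose by 1.96 on its brightest probe and differed by -0.06 on another.

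Axon guidance and adhesion genes were divided, with 8 of 34 higher, 4 lower and a median of -0.19. These shares, 23.5% and 11.8%, lay near the 17.9% and 18.1% of all genes, so nothing is read from the list as a whole. Epha5, an ephrin receptor, read 10.52, 11.15 and 10.95 in OMP cells and 8.56, 7.33 and 8.37 in Neurog1-Ctrl cells (2.78 ± 0.33, adjusted p = 3.15e-06). Epha7 rose by 1.75, Sema7a by 1.67, Unc5b by 1.57, the homophilic adhesion protein Kirrel2 by 1.47 and the ephrin Efna5 by 1.37, genes of which several take part in sorting olfactory axons at the bulb. Cntn2, the adhesion protein TAG-1 of growing axons, fell by 3.83 (5.42, 6.16 and 5.48 in OMP cells, detected on 2 arrays, and 9.45, 10.07 and 9.02 in Neurog1-Ctrl cells). Cxcl14, a chemokine, read 5.16, 4.64 and 4.81 in OMP cells and 8.85, 8.62 and 7.98 in Neurog1-Ctrl cells, at least 7.30-fold lower, with all 6 Neurog1-line arrays above the other 15. Sema3a, a repellent, fell by 1.17.

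Among the remaining programmes, cholesterol synthesis stood out by direction: 12 of 18 genes fell and none rose (median -0.68). Mvd, of the mevalonate arm, changed by -2.0 with detection on 2 OMP arrays, Dhcr7 by -1.51 with detection on 1, and Cyp51 by -1.26, while Insig1, a sterol sensor, did not pass (0.39). Notch pathway genes split, 6 of 19 higher and 7 lower (median 0.45). Numb, a Notch antagonist, read 11.50, 11.15 and 11.49 in OMP cells and 10.12, 10.09 and 9.85 in Neurog1-Ctrl cells (1.36 ± 0.18, adjusted p = 1.22e-05), and its relative Numbl fell by 1.38 with detection on 2 OMP arrays. Notch1 fell by 1.57 and the ligand Jag1 was at least 1.44-fold higher. Without OMP replicate 1, or under median scaling, 3 Notch genes rose. Of 30 neuronal RNA-binding proteins 6 rose and 8 fell (5 without OMP replicate 1 or either of Neurog1-Ctrl replicates 1 and 2). Their shares were 20% and 26.7%, against 17.9% and 18.1% of all genes. Msi1 was at least 2.23-fold higher and Khdrbs2 at least 2.08-fold lower. Among 23 apoptosis regulators 3 rose and 5 fell (median -0.16). Both shares lay near the 17.9% and 18.1% of all genes. Nothing is therefore read from the list as a whole, nor from the roles of the members named next. The survival genes Faim2, which read 13.33, 12.94 and 13.31 in OMP cells and 11.70, 11.34 and 11.56 in Neurog1-Ctrl cells, and Bcl2l2 rose by 1.66 and 1.52, and the pro-death genes Bmf and Casp6 changed by -1.10 and -1.0. Bcl2l11, which promotes death, rose by 0.89, and Bcl2l1, which opposes it, fell by 0.62, a call lost without OMP replicate 1 or 2 or Neurog1-Ctrl replicate 1 or 2 (adjusted p from 0.116 to 0.162). Leaving out Neurog1-Ctrl replicate 2 made the lower count 2, and leaving out OMP replicate 1 or 2 or Neurog1-Ctrl replicate 1 or 3 made it 3. Of 43 oxidative phosphorylation genes 2 rose and 6 fell (median -0.07), both shares under those of all genes. The 6 became 2 on leaving out OMP replicate 1 or Neurog1-Ctrl replicate 2, and 3 on leaving out Neurog1-Ctrl replicate 1, and the 2 became 1 without OMP replicate 2 and 0 without any other array.

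Markers of other mucosal cells did not all move alike, and those of horizontal basal cells were called most often. Of 13 horizontal basal cell markers 10 rose and none fell (median 1.51). Trp63, the basal stem cell factor, read 8.86, 8.35 and 8.46 in OMP cells and 7.40, 7.14 and 6.56 in Neurog1-Ctrl cells (1.52 ± 0.36, adjusted p = 0.00245). Krt5, the basal keratin, read 7.79, 7.60 and 7.09 in OMP cells and 5.57, 5.90 and 5.36 in Neurog1-Ctrl cells, where 1 array was above background (1.88 ± 0.37, adjusted p = 0.00066). The summed signal of the list was 3748 to 4716 on OMP arrays and 1058 to 1702 on Neurog1-Ctrl arrays, without overlap, while the OM arrays of whole mucosa reached 17719 to 18449. Of 17 sustentacular markers 5 rose and none fell (median 0.88), with sums of 73753 to 127500 in OMP cells and 42008 to 72343 in Neurog1-Ctrl cells, against 289260 to 316650 in sorted sustentacular cells. That count was 1 without OMP replicate 1 or Neurog1-Ctrl replicate 1, 2 without OMP replicate 2, 3 without Neurog1-Ctrl replicate 3 and 8 without OMP replicate 3, and it was 0 under median scaling. Of 14 Bowman gland markers 3 rose, 2 of them Dcpp2 and Dcpp3, and 8 rose without OMP replicate 3. Endothelial (1 of 8 higher, 12.5%), microvillar (1 of 14, 7.14%), erythroid (0 of 5) and stromal and glial markers (2 of 7 higher, 1 lower) gave few calls. Among 15 myeloid and lymphoid markers 2 rose and 2 fell (13.3% each). Over all genes 17.9% were higher and 18.1% lower, so nothing is read from these lists of few calls. The part of these cells in the neuronal results was not tested.

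Immediate early genes, which respond to dissociation as well as to activity, rose in 8 of 18 cases and fell in 1 (median 0.81). Fos read 10.91, 12.00 and 10.65 in OMP cells and 8.84, 9.12 and 10.002 in Neurog1-Ctrl cells (1.87 ± 0.39, adjusted p = 0.00095), and Zfp36 rose by 1.92. Jun ran against them, with 9.79, 10.31 and 10.45 in OMP cells and 11.34, 11.85 and 11.46 in Neurog1-Ctrl cells (-1.36 ± 0.23, adjusted p = 0.000136). The count of rises was 3 without Neurog1-Ctrl replicate 1, 4 without OMP replicate 2 and 5 without OMP replicate 1, Neurog1-Ctrl replicate 2 or Neurog1-Ctrl replicate 3.

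The same step was also sampled after removal of the olfactory bulb (bulbectomy), the target of the neurons' axons, in the OMP-OBX and Neurog1-OBX groups of the same lines 3 weeks later. Of the 4279 called genes, 3843 (89.8%) had the same sign there. The same-sign share over all tested genes was not counted. As the lines are the same there, this share cannot tell stage and line apart. The difference between the steps was called for 234 genes (1.97%), 83 of them positive and 151 negative, and 1862 genes had an unadjusted p under 0.05. Gap43 showed it plainly: OMP cells lay at a mean of 9.52 and Neurog1-Ctrl cells at 12.96 without lesion, whereas OMP-OBX cells lay at 12.90 and Neurog1-OBX cells at 13.30. The step of Gap43 was thus -3.44 in unlesioned mucosa and -0.39 after bulbectomy (difference -3.05, adjusted p = 0.00947). Adcy3 stepped up by 2.38 in unlesioned mucosa and by 1.45 after bulbectomy, a difference that did not pass (0.92, adjusted p = 0.244).

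Genes whose levels over all 21 mucosal arrays lay closest to those of Gng8 were Vim, Rnf144a, Prph, Dpysl3 and Podxl2 (Pearson r from 0.972 to 0.985). Rnf144a, a ubiquitin ligase, changed by -2.92, and Podxl2, a sialomucin, by -3.10. Closest to Adcy3 were Scn4b, Cngb1, Umodl1, Ano2 and Cenpo (r from 0.977 to 0.988). Umodl1 read 14.14, 14.14 and 13.93 in OMP cells and 11.33, 11.16 and 11.46 in Neurog1-Ctrl cells (2.75 ± 0.31, adjusted p = 1.86e-06). Cenpo, a centromere protein gene that rose by 1.69, overlaps Adcy3 in the RefSeq annotation of chromosome 12, so signals of the pair may not be separable. These likenesses are descriptions over arrays that share cell types.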

How the data were processed

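RNA of sorted cells was labelled and hybridised to Illumina mouse bead arrays, per the labels' protocols; GenomeStudio was used, per the submitters' processing notes, with its version not given in the sources used here. The deposited table holds, for each of 45281 probes and 24 samples, the authors' unnormalised intensity and a detection p-value; the deposited p-value says how far a probe stands above the negative controls. The deposited series matrix holds the authors' processed intensity of the same arrays (column medians from 120.65 to 121.02, lowest value 74.9), on a linear scale and with its scaling method not given in the sources used here. It served as an alternative.

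From the deposited intensity values, limma 3.58.1 in R 4.3.3 was used for normexp background correction from detection p-values (offset 16), quantile normalisation and log2 over the 21 mucosal arrays (7 groups of 3). Python 3.11.15 with pandas 2.3.3 and matplotlib 3.10.9 made tables and figures. A probe entered the fit if its detection p was under 0.01 on 3 or more arrays, and the probe of highest mean signal stood for its gene. Of the probes, 34885 (77.0%) have 1 gene symbol in the platform table, 18 several and 10378 (22.9%) none, and only the first kind was used. A model with 1 mean per group (14 residual degrees of freedom, 18.9 after moderation) gave the contrast OMP minus Neurog1-Ctrl. P-values were adjusted by Benjamini-Hochberg over 11870 genes and called at under 0.05. Fold changes rest on offset intensities, which compress low signals, and the number of arrays limits the precision.

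A bound on a fold sets the higher group's mean against, per array of the dim group, the higher of the lowest signal above background and the dim probe's own. Named genes are the reporters and markers, the 15 largest rises and falls among separated, detected genes with a proper symbol, members of 32 gene lists, the 6 largest rises and falls among odorant receptors and ribosomal protein genes, all trace amine receptors, and the 5 genes most correlated with Gng8 and with Adcy3. Other probes of a gene are given where they differ in sign or are under 0.5 of the size. The members and lists were chosen with earlier results of these data known. Lists were described by counts and medians, with no set test. Replicate numbers did not pair the samples: deviations of same-numbered OMP and Neurog1-Ctrl arrays correlated at -0.15, 0.13 and -0.01. Nothing in the labels pairs them, and p-values measure the spread between pools. OMP replicate 3 was matched by its title to the column that carries the number 4. Alternatives covered background correction, scaling, filter, probe choice, arrays in the fit, array weights, blocks and leaving out each array.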

Additional observations from a re-analysis of the deposited data

Results flagged for a closer look

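These genes of the report had a difference between OMP and Neurog1-Ctrl cells that differed, by limma's test of the difference between the steps adjusted over all genes, from that between OMP-OBX and Neurog1-OBX cells of bulbectomised mice. Each value is the unlesioned step minus the step after bulbectomy (log2, n = 3 arrays in each of the 4 groups).

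For 10 genes the fitted fall was larger in unlesioned mucosa. For Gng8 the steps were -4.72 and -2.11, a difference of -2.61 (adjusted p = 0.0245), and the mean log2 signal was 9.36 in OMP cells and 11.86 in OMP-OBX cells. Gap43, the growth-cone protein, gave -3.05 (adjusted p = 0.00947), with steps of -3.44 in unlesioned mucosa and -0.39 after bulbectomy. Stmn1, of growing neurons, gave -2.95 (adjusted p = 0.0333), Marcksl1, an actin-linked membrane protein, -2.09 (adjusted p = 0.00933), and Tmsb10, which binds actin monomers, -2.09 (adjusted p = 0.0116). Podxl2 differed by -1.74 (adjusted p = 0.0351), the gamma subunit Gng3 by -1.60 (adjusted p = 0.0386), the cell cycle inhibitor Cdkn1c by -1.38 (adjusted p = 0.0456) and the synaptotagmin Syt5 by -1.83 (adjusted p = 0.0389). The fitted difference of the odorant receptor Olfr486 was -1.28 (adjusted p = 0.0237). It was detected on no OMP or OMP-OBX array and on 1 Neurog1-OBX array, so the size of this difference is not measured.

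Of the genes that rose, the fitted difference was 1.58 for Taar7d (adjusted p = 0.00446) and 1.65 for Taar7e (adjusted p = 0.0423). Both were detected on all 3 OMP arrays and on no OMP-OBX, Neurog1-Ctrl or Neurog1-OBX array, so their step after bulbectomy is not measured and the size of these differences is not either. Olfr1200 gave 1.45 (adjusted p = 0.0398), with detection on all OMP arrays, 1 OMP-OBX array and no array of either Neurog1 group, and its size is likewise not measured. Smarcc1, a chromatin remodelling subunit, differed by 2.23 (adjusted p = 0.0220), with a step of 2.76 in unlesioned mucosa and 0.53 after bulbectomy. The immediate early genes Fos and Zfp36 rose in the unlesioned step and differed by 2.13 (adjusted p = 0.0491) and 2.08 (adjusted p = 0.0341), and their steps after bulbectomy were -0.27 and -0.16. The summed signal of the 18 measured immediate early genes was 17920 to 22467 on OMP and 20836 to 22152 on OMP-OBX arrays. It was 11338 to 14810 on Neurog1-Ctrl and 25204 to 27829 on Neurog1-OBX arrays. Over this list the precursor sorts thus differed without overlap, and the mature sorts overlapped. The share of all tested genes called for a difference between the steps was 1.97%.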

How the results depend on the processing

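The sign of the called genes that an alternative still tested (4043 under the stricter filter, 4243 to 4271 with an array left out, 4279 otherwise) was the same for 99.0% to 100% of them, which their choice by the same data favours. Fewer kept their call: 2990 under median scaling, 3259 to 3654 with an array left out and 1963 on the highest noise class described next. Median scaling gave 1396 higher genes in place of 2128 and 114 differences between the unlesioned and bulbectomised step in place of 234, and array weights gave 793 of the last kind. The authors' processed values gave 1247 genes called and at least 2-fold apart in place of 2383. The OMP arrays differ in background noise, and an alternative chosen after seeing the data kept only the OMP array of the highest noise class, which all Neurog1-Ctrl arrays share. Its spread is then assumed to be that of the other groups, and it gave 2088 called genes, 998 higher and 1090 lower. In that fit 8 odorant transduction genes, 112 odorant receptors and 4 horizontal basal cell markers were called higher and 27 ribosomal protein genes lower. With 1 array left out at a time, between 3282 and 3959 genes were called, 1596 to 1958 higher and 1686 to 2001 lower, and 2173 to 2510 were called and at least 2-fold apart. With a replicate block 4289 genes were called, 2140 higher and 2149 lower, and 226 differed between the steps. The numbers do not pair the samples, so this block is no stricter test. The noise class as a block gave 3832 called genes. Signal over background limits what can be said of dim genes, for which only a bound is given.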
